A study of Mus musculus with 12 samples.

Results

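The collagen genes code for the chains that wind together, in sets of 3, into the collagens of the extracellular matrix. They were chosen by symbol, as every gene of the count table named Col, a number, a and a number, which gave 44 of 56980 gene IDs in the files. Of these, 34 passed the filter on low counts and were tested, and 19 averaged 10 or more CPM (counts scaled to a common library total) over all libraries. The cells were NIH/3T3, an established line of wild-type mouse embryonic fibroblasts, and polyadenylated RNA was sequenced. Of 4 groups with 3 libraries each, 1 received only the vehicle DMSO, 1 carfilzomib at 200 nM (CFZ), 1 doxorubicin at 5 µM (DOX) and 1 both drugs at these doses (CFZ-DOX), all for 8 h. Carfilzomib is an irreversible proteasome inhibitor, and doxorubicin is an anthracycline that poisons topoisomerase II and intercalates into DNA. Libraries are called by group and by the replicate number in the labels (DOX 1 is replicate 1 of the DOX group). The labels do not state whether the replicates are independent cultures; the p-values below therefore reflect the spread among the libraries, part or all of which may be technical.

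Fibroblasts are the main source of interstitial collagen. Each chain is made on endoplasmic reticulum ribosomes, hydroxylated on proline and lysine, folded from its end with the help of the chaperone HSP47 and exported in large carriers. Fibrillar collagens (types I, II, III, V, XI, XXIV and XXVII) form the banded fibrils, type IV forms the network of basement membranes, type VI forms beaded filaments, and fibril-associated collagens decorate the fibrils.

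The libraries held 28278879 to 42033993 counts. Ribosomal protein genes took 3.79 to 4.27% of the counts with DMSO or CFZ, 6.52 to 7.07% with DOX and 9.73 to 10.4% with CFZ-DOX. For this reason a second scale, on which the ribosomal protein genes are held level, is set beside TMM, the scale of every value not marked otherwise. From TMM to this scale the 34 log2 fold changes shifted by −0.10 to 0.03 with CFZ, by −1.004 to −0.62 with DOX and by −1.79 to −1.41 with CFZ-DOX. The median log2 fold change of all 16648 tested genes was −0.01 after CFZ, 0.14 after DOX and 0.09 after both drugs on the TMM scale, and −0.10, −0.73 and −1.56 on the ribosomal scale. Over 13310 genes, DOX 3 differed from DOX 1 and DOX 2 by a root mean square of 0.555 and 0.473 on the log2 scale, against 0.309 between the latter, and CFZ-DOX 3 differed from CFZ-DOX 1 and CFZ-DOX 2 by 0.587 and 0.546, against 0.381. Over the 28 collagen genes among them it was replicate 1 that lay highest, with medians of 1.01 above DOX 3 and 1.21 above CFZ-DOX 3 on the log2 scale. Of 9 fibroblast markers, 8 had a mean over 1 CPM on the library total, without TMM (Vim, Thy1, Pdgfrb, Pdgfra, Prrx1, Twist1, S100a4 and Fbn1).

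Collagen transcripts made up a smaller share of the library with CFZ and a larger one with either doxorubicin group. All 44 genes together took 2.40 to 3.16% of counts under vehicle, 1.59 to 2.29% under CFZ, 3.32 to 5.32% under DOX and 3.97 to 6.68% under both drugs. The CFZ libraries lay below all DMSO libraries, and the DOX and CFZ-DOX libraries lay above them. Col1a1 and Col1a2, the chains of type I collagen, held 56.9 to 64.8% of collagen counts in each library, and the 10 highest genes held 95.3 to 96.1%.

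The fibrillar class took 1.75 to 2.34% of counts under vehicle, 1.10 to 1.59% under CFZ, 2.49 to 3.96% under DOX and 2.98 to 4.99% under both drugs. Its 3 CFZ values were all below its DMSO values. The basement membrane class took 0.192 to 0.256% of counts under vehicle, 0.157 to 0.234% under CFZ, 0.246 to 0.423% under DOX and 0.339 to 0.587% under both drugs, and its CFZ and DMSO values overlapped. The beaded filament class, of type VI, took 0.361 to 0.462% of counts under vehicle, 0.293 to 0.411% under CFZ, 0.495 to 0.798% under DOX and 0.564 to 0.947% under both drugs. The fibril-associated class took 0.0469 to 0.0603% of counts under vehicle, 0.0265 to 0.0436% under CFZ, 0.0646 to 0.0973% under DOX and 0.0800 to 0.129% under both drugs. These are shares of counts without TMM, so they depend on what else is in the library and on transcript length.

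**Figure D1:**
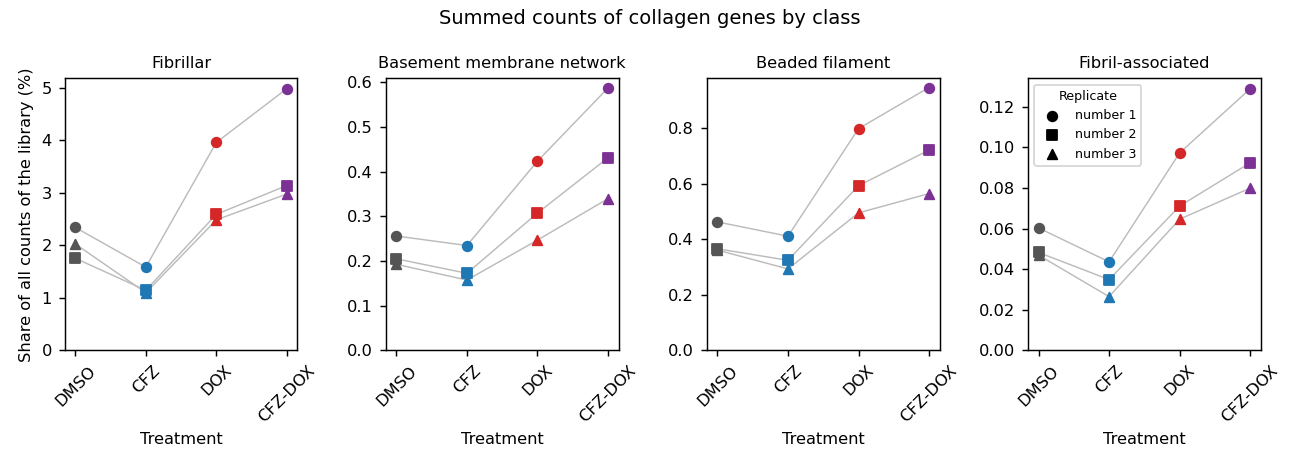
Share of all counts (y axis, percent) taken by the genes of 4 collagen classes in each of the 12 libraries, by treatment (x axis); symbols give the replicate number and grey lines join libraries of the same number. Replicate 1 is the highest library of its group in all 4 classes, and the fibrillar share runs from 1.10% in CFZ 3 to 4.99% in CFZ-DOX 1.

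With CFZ alone, few single collagen genes passed the test, though 25 of the 34 had a negative log2 fold change. With edgeR's quasi-likelihood test and an adjusted p under 0.05, 1 of 34 tested genes was higher and 3 were lower, where 14.4% of all tested genes were called higher and 14.4% lower. The median log2 fold change of the 34 was −0.26, and of the 19 abundant ones −0.40, against −0.01 for all tested genes. With the replicate number as a block 1 was higher and 11 lower (17.8% and 19% of all genes). On the ribosomal scale 1 was higher and 5 lower (8.28% and 14.2% of all genes), the 5 being Col1a1, Col11a1, Col7a1, Col17a1 and Col28a1. All 3 same-numbered pairs had the lower value with CFZ for 19 of the 34, against 36.5% of all tested genes.

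With DOX, 18 of 34 were higher and 0 lower on the TMM scale (36.1% of all tested genes were higher and 31.3% lower). On the ribosomal scale 6 were higher and 4 lower (13.4% and 54.5% of all genes). The median of the 34 was 0.81 on the TMM scale and −0.07 on the ribosomal scale, and of the 19 abundant ones 0.75 and −0.19. The count of 18 fell to 10 without DOX 1 and to 12 without DMSO 2, and was 24 with the replicate block (39.1% of all genes). With CFZ-DOX, 24 were higher and 0 lower on the TMM scale (39.3% and 35.7% of all genes), and 4 were higher and 9 lower on the ribosomal scale (11.1% and 68.6%). Medians there were 1.47 and −0.25. The 6 genes higher with DOX in all 5 scalings tried were Col11a2, Col27a1, Col4a3, Col8a2, Col9a2 and Col20a1, and with CFZ-DOX they were Col11a2, Col8a2, Col9a2 and Col20a1 (13.4% and 11.1% of all genes were higher in all 5). Col8a2, Col9a2 and Col4a3 had no DMSO or CFZ library over the cutoff of the filter and were tested only because of their doxorubicin libraries, so against DMSO they could only be called higher, and nothing is read from these counts against the shares of all genes. They are also 3 of the 18 and 3 of the 24. These comparisons share the DMSO libraries.

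**Figure D2:**
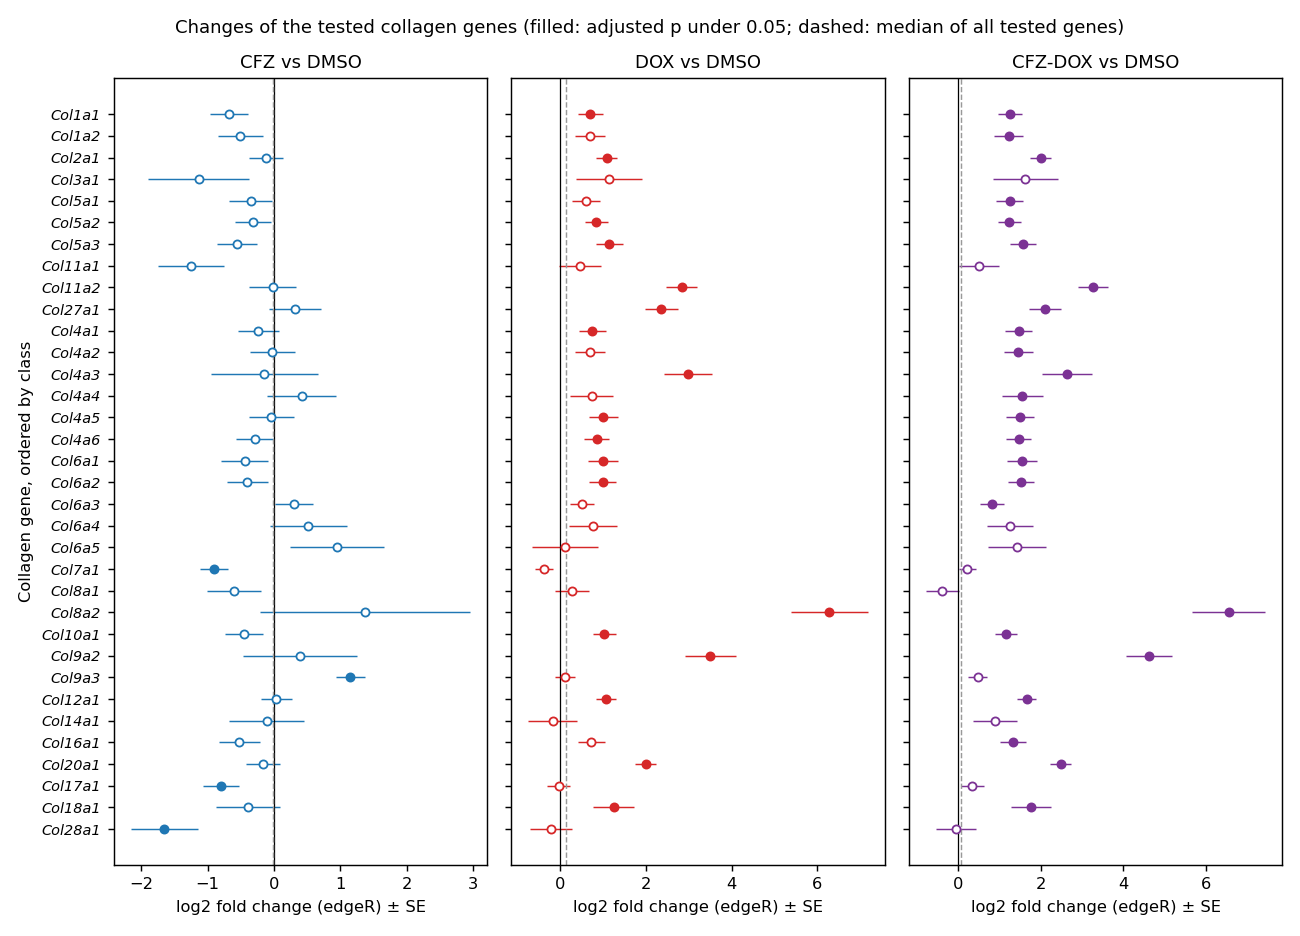
log2 fold changes (x axis, TMM scale, point with SE) of the 34 tested collagen genes (y axis) in the 3 comparisons with DMSO; filled points have an adjusted p under 0.05 and the dashed line is the median of all tested genes. The CFZ panel has 4 filled points, the DOX panel 18 and the CFZ-DOX panel 24. Of all tested genes, 14.4% were higher and 14.4% lower with CFZ, 36.1% and 31.3% with DOX, and 39.3% and 35.7% with CFZ-DOX. On the ribosomal scale 6 collagen genes were higher and 4 lower with DOX (13.4% and 54.5% of all genes), and 4 and 9 with CFZ-DOX (11.1% and 68.6%). Among the 18 and the 24 are Col8a2, Col9a2 and Col4a3, which could only be called higher against DMSO.

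Type I collagen is the main fibril of skin, tendon and bone. Col1a1, its α1 chain, stood at 8202, 6868 and 7448 CPM in the vehicle libraries, 5437, 4734 and 3898 under CFZ, 16971, 11289 and 8451 under DOX and 25702, 16479 and 12093 under both drugs. All 3 CFZ libraries were below and all DOX and CFZ-DOX libraries above the DMSO range. Its change was −0.68 ± 0.29, adjusted p = 0.0964 with CFZ (log2 fold change ± SE), with a blocked adjusted p of 0.00892. Col1a1 rose 1.63-fold with DOX (0.71 ± 0.29, adjusted p = 0.0435), a call that was lost when any of 9 of the 12 libraries was left out, and 2.41-fold with CFZ-DOX (1.27 ± 0.29, adjusted p = 0.00123). Ribosomal scaling made both values negative, −0.23 and −0.44.

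Col1a2, the α2 chain, stood at 9222, 6804 and 7797 CPM in the vehicle libraries, 7231, 4644 and 4879.8 under CFZ, 18969, 10481 and 9105 under DOX and 29210.3, 14784 and 11953 under both drugs. Only CFZ-DOX stood clear of DMSO. Its changes were −0.51 ± 0.34, adjusted p = 0.297 with CFZ, 0.69 ± 0.34, adjusted p = 0.0856 with DOX and 1.23 ± 0.35, adjusted p = 0.00489 with CFZ-DOX (ribosomal scale −0.49). With the block the adjusted p was 0.0372 with CFZ and 0.00942 with DOX. Per length, in TPM, Col1a1 was at 4627 ± 470.3 TPM with DMSO, rank 14 of all genes, and Col1a2 at 2587 ± 427 TPM, rank 31. With CFZ they ranked 32 and 61. The ratio of Col1a1 to Col1a2 per length averaged 1.80 under vehicle, 1.62 under CFZ, 1.83 under DOX and 1.90 under both drugs, and overlapped DMSO in each group.

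**Figure D3:**
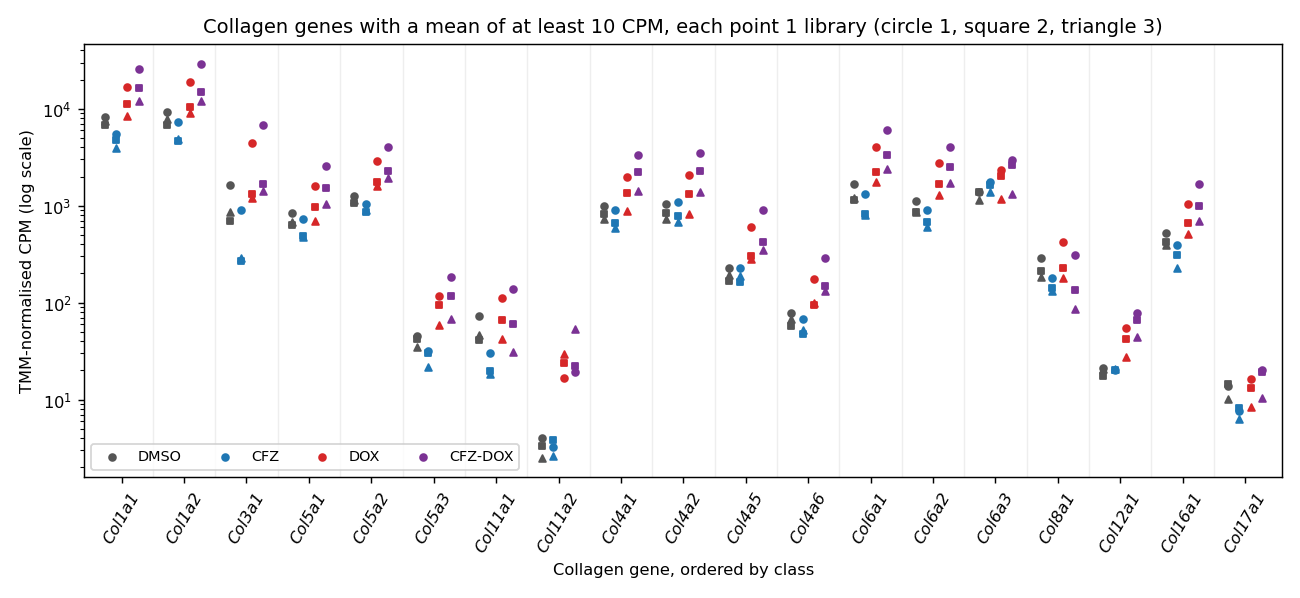
TMM-normalised CPM (y axis, log scale) of the 19 collagen genes that average 10 CPM or more (x axis), with 1 point per library coloured by treatment. Col1a1 and Col1a2 lie highest, Col3a1 spreads most with replicate 1 on top in each group, and Col11a2 is below 5 CPM in all DMSO and CFZ libraries and above 16 CPM in all doxorubicin libraries.

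Type III collagen is a homotrimer that shares fibrils with type I. Col3a1 stood at 1631, 698 and 854 CPM in the vehicle libraries, 893, 270.1 and 286 under CFZ, 4438, 1336 and 1207 under DOX and 6811, 1675 and 1415 under both drugs. Replicate 1 was the highest of every group, and every treated group overlapped DMSO. No change passed the test: −1.14 ± 0.77, adjusted p = 0.311 with CFZ, 1.13 ± 0.77, adjusted p = 0.212 with DOX and 1.64 ± 0.78, adjusted p = 0.0785 with CFZ-DOX. With the replicate block the adjusted p was 0.000115 with CFZ (lower) and 0.000562 with DOX (higher).

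Type V collagen sits inside type I fibrils and sets their width. Col5a1 stood at 836, 628 and 677 CPM in the vehicle libraries, 722, 483 and 474 under CFZ, 1586, 975 and 688 under DOX and 2559.7, 1508 and 1052 under both drugs. Col5a2 stood at 1245, 1069 and 1143 CPM in the vehicle libraries, 1035, 855 and 896 under CFZ, 2873, 1747 and 1594 under DOX and 4019, 2269 and 1917 under both drugs. Both exceeded every DMSO library in all 3 CFZ-DOX libraries, where Col5a1 rose 2.39-fold (1.26 ± 0.33, adjusted p = 0.00305) and Col5a2 2.37-fold (1.25 ± 0.27, adjusted p = 0.000779), against −0.46 and −0.46 on the ribosomal scale. With DOX Col5a2 rose (0.85 ± 0.27, adjusted p = 0.0125; lost without DOX 1; ribosomal scale −0.08), and Col5a1 changed by 0.60 ± 0.33, adjusted p = 0.115, or 0.0145 with the block. A further chain, Col5a3, stood at 45.4, 42.6 and 34.6 CPM in the vehicle libraries, 31.6, 30.4 and 21.4 under CFZ, 118, 95.03 and 59.2 under DOX and 184, 117 and 67.6 under both drugs. It rose 2.22-fold with DOX (1.15 ± 0.31, adjusted p = 0.00428) and 3.00-fold with CFZ-DOX (1.58 ± 0.31, adjusted p = 0.000319), and was at 0.22 and −0.14 on the ribosomal scale. With CFZ it lay below every DMSO library (−0.56 ± 0.31, adjusted p = 0.196; blocked adjusted p = 0.0112).

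Type XI collagen is the cartilage counterpart of type V. Col11a1 stood at 73.1, 41.5 and 46.0 CPM in the vehicle libraries, 29.9, 19.6 and 18.2 under CFZ, 113, 66.5 and 42.2 under DOX and 137, 60.6 and 31.3 under both drugs. Its CFZ libraries were all below DMSO (−1.25 ± 0.50, adjusted p = 0.0865; blocked adjusted p = 0.000404), while DOX and CFZ-DOX overlapped DMSO. Col11a2 stood at 4.02, 3.31 and 2.52 CPM in the vehicle libraries, 3.28, 3.82 and 2.60 under CFZ, 16.7, 23.99 and 29.8 under DOX and 19.3, 22.3 and 52.9 under both drugs. All 6 libraries with doxorubicin lay above all 6 without. Col11a2 rose 7.15-fold with DOX (2.84 ± 0.36, adjusted p = 9.66e-06) and 9.59-fold with CFZ-DOX (3.26 ± 0.36, adjusted p = 1.81e-06), and stayed higher on the ribosomal scale, at 2.01 and 1.69. Here replicate 3, not 1, was highest in both doxorubicin groups.

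The other tested fibrillar genes were scarce. Col2a1, the chain of cartilage type II collagen, averaged 1.28 ± 0.173 CPM in the vehicle libraries, 1.17 ± 0.393 under CFZ, 2.71 ± 0.315 under DOX and 5.12 ± 0.281 under both drugs (SD, n = 3). It rose 2.12-fold with DOX and 4-fold with CFZ-DOX on the TMM scale, and was at 0.21 and 0.37 log2 on the ribosomal scale. Col27a1 averaged 2.28 ± 0.205 CPM in the vehicle libraries, 2.85 ± 0.258 under CFZ, 11.7 ± 7.34 under DOX and 9.82 ± 4.72 under both drugs. It rose with DOX (2.36 ± 0.39, adjusted p = 0.000106; ribosomal scale 1.59) and CFZ-DOX (2.11 ± 0.39, adjusted p = 0.000199); the latter was 0.52 on the ribosomal scale with an adjusted p of 0.361 and so not called there, and DOX 3, at 20.2 CPM, stood above DOX 1 and DOX 2 at 7.36 and 7.58 CPM.

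Type IV collagen chains are coded by 3 head-to-head gene pairs. Col4a1 and Col4a2, on chromosome 8, have 5′ ends 21 bases apart in the files' annotation. Col4a1 stood at 983, 826 and 721 CPM in the vehicle libraries, 898, 664 and 587 under CFZ, 1992, 1368 and 891 under DOX and 3352, 2239 and 1409 under both drugs. Col4a2 stood at 1032, 835 and 725 CPM in the vehicle libraries, 1083, 792 and 675 under CFZ, 2050.1, 1319 and 829 under DOX and 3533, 2257 and 1370.5 under both drugs. With CFZ-DOX each exceeded every DMSO library, at 1.47 ± 0.32, adjusted p = 0.000748 for Col4a1 and 1.47 ± 0.35, adjusted p = 0.00147 for Col4a2, against −0.25 and −0.26 on the ribosomal scale. With DOX the values were 0.75 ± 0.31, adjusted p = 0.0466 for Col4a1, lost when any 1 of 9 libraries was left out, and 0.70 ± 0.34, adjusted p = 0.0846 for Col4a2, where the blocked adjusted p was 0.00442. The ratio of Col4a1 to Col4a2 per length was 0.845, 0.877 and 0.882 with DMSO and 0.736, 0.743 and 0.770 with CFZ, without overlap (exact permutation test, two-sided p = 0.1, the smallest that 3 against 3 can give).

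Col4a5 and Col4a6 share the X chromosome, with 5′ ends 1309 bases apart. Col4a5 stood at 229, 167 and 194 CPM in the vehicle libraries, 226, 161 and 187 under CFZ, 598, 302 and 280.4 under DOX and 907, 420.1 and 346 under both drugs. Col4a6 stood at 78.1, 56.8 and 68.4 CPM in the vehicle libraries, 67.8, 47.0 and 51.9 under CFZ, 174, 93.6 and 99.6 under DOX and 285, 147 and 131 under both drugs. Both were higher with DOX (1.001 ± 0.34, adjusted p = 0.0171 and 0.85 ± 0.29, adjusted p = 0.0171), calls lost without DOX 1 or DMSO 2, and with CFZ-DOX (1.504 ± 0.34, adjusted p = 0.00107 and 1.47 ± 0.29, adjusted p = 0.000368). Held to ribosomal protein genes, Col4a5 was at 0.06 and −0.23 and Col4a6 at −0.07 and −0.25. The last pair, Col4a3 and Col4a4 on chromosome 1, was nearly silent. Col4a3 had 6 counts over the DMSO libraries, 5 over CFZ, 47 over DOX and 28 over CFZ-DOX, a ratio of 8.39 for DOX to DMSO (exact 95% interval 3.58 to 24, counting error alone). Col4a4 averaged 0.246 ± 0.141 CPM in the vehicle libraries, 0.339 ± 0.130 under CFZ, 0.415 ± 0.0908 under DOX and 0.747 ± 0.370 under both drugs, and rose with CFZ-DOX (1.56 ± 0.49, adjusted p = 0.00975; lost without CFZ-DOX 2; ribosomal scale −0.05).

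Type VI collagen is built of Col6a1, Col6a2 and a longer chain such as Col6a3. Col6a1 and Col6a2 lie 85161 bases apart on chromosome 10, and Col6a3 is on chromosome 1. The 200 bases before each gene's RefSeq start (GRCm38.p6) are shown because the ratio of Col6a1 to Col6a2 in each treated group overlapped that of DMSO, while the ratio of Col6a3 to Col6a2 did not. Matches on either strand to the TATA box letters TATAAA, to the CCAAT box letters CCAAT or to the GC box letters GGGCGG are in capitals, and none overlap. They lie at chr10:76726045-76726244 (minus strand) for Col6a1, chr10:76623631-76623830 (minus) for Col6a2 and chr1:90843972-90844171 (minus) for Col6a3.
Col6a1: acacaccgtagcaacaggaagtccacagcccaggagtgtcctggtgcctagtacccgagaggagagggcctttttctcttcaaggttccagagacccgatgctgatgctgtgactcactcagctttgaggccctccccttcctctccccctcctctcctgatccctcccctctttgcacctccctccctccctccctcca
Col6a2: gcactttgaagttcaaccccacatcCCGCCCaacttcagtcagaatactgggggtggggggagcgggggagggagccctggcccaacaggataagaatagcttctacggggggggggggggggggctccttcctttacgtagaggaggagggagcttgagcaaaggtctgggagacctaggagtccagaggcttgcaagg
Col6a3: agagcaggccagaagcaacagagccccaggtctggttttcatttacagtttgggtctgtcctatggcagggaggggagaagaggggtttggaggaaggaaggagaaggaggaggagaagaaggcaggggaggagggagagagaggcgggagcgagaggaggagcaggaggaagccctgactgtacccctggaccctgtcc
The Col6a2 stretch has 1 GGGCGG match, on the opposite strand, and these letters are not in the other stretches. In RefSeq windows of 300 bases, GGGCGG was present in 35.7% of 32851 windows of all genes and in 60.5% of 38 windows of 35 collagen genes, CCAAT in 37.4% and 34.2%, and TATAAA in 13.6% and 13.2%.

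Col6a1 stood at 1675, 1136 and 1200.3 CPM in the vehicle libraries, 1334, 821 and 801 under CFZ, 3997, 2248 and 1773 under DOX and 6044, 3351 and 2396 under both drugs. Col6a2 stood at 1123, 862 and 868 CPM in the vehicle libraries, 895, 672 and 596 under CFZ, 2743, 1671 and 1279.8 under DOX and 4011, 2516 and 1709 under both drugs. Both were above the DMSO range in all doxorubicin libraries, with 0.999 ± 0.35, adjusted p = 0.0217 for Col6a1 (lost without DOX 1, DMSO 2 or DMSO 3) and 0.997 ± 0.31, adjusted p = 0.0113 for Col6a2 (lost without DOX 1) with DOX, and 1.56 ± 0.36, adjusted p = 0.00119 and 1.53 ± 0.32, adjusted p = 0.000508 with CFZ-DOX. Ribosomal scaling put them at 0.05 and 0.06 with DOX and −0.17 and −0.19 with CFZ-DOX. With CFZ the values were −0.44 ± 0.35, adjusted p = 0.386 for Col6a1 (blocked adjusted p = 0.0359) and −0.40 ± 0.31, adjusted p = 0.372 for Col6a2 (blocked adjusted p = 0.0583). Col6a3 stood at 1399, 1371 and 1137 CPM in the vehicle libraries, 1759, 1639.6 and 1401 under CFZ, 2347, 2034 and 1167 under DOX and 2975, 2613 and 1314 under both drugs. All 3 CFZ libraries were above the DMSO range (0.30 ± 0.29, adjusted p = 0.479, or 0.214 with the block). With DOX it changed by 0.51 ± 0.29, adjusted p = 0.131, or 0.0346 with the block, and CFZ-DOX gave 0.82 ± 0.29, adjusted p = 0.018, lost without CFZ-DOX 1, CFZ-DOX 2 or DMSO 3 and at −0.88 on the ribosomal scale.

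The ratio of 2 chains within a library does not depend on the scaling. Per exon length, Col6a3 to Col6a2 was 0.867, 1.11 and 0.912 under vehicle, 1.37, 1.70 and 1.63 under CFZ, 0.595, 0.847 and 0.634 under DOX and 0.516, 0.723 and 0.535 under both drugs. Every CFZ library was above, and every DOX and CFZ-DOX library below, the DMSO libraries (each exact permutation p = 0.1, two-sided). Mean log2 differences from DMSO were 0.71, −0.48 and −0.71. The ratio of Col6a1 to Col6a2 averaged 2.66, 2.57, 2.65 and 2.69 in the same order and overlapped throughout. Over 30 such comparisons of 6 ratios the smallest Benjamini-Hochberg adjusted p was 0.429, so none passed correction, which a design of 3 against 3 could not do. Col5a1 to Col5a2 was also below the DMSO range in all DOX libraries (log2 difference −0.27, exact p = 0.1). The tested type VI genes Col6a4 and Col6a5 were under 1 CPM in every library, and no change in them against DMSO passed.

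**Figure D4:**
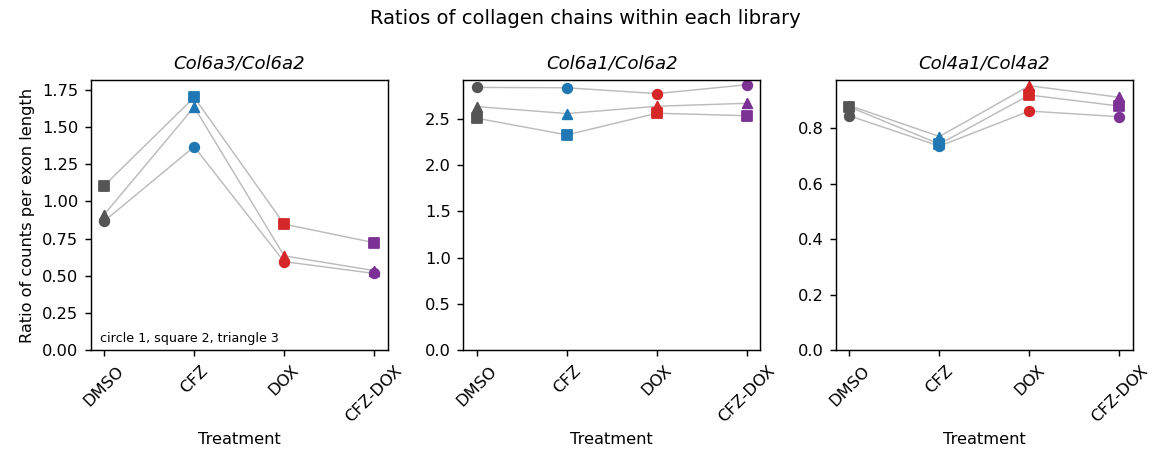
Ratios of counts per exon length (y axis) between pairs of collagen chains in each library, by treatment (x axis); symbols give the replicate number and lines join equal numbers. Col6a3 to Col6a2 lies between 1.37 and 1.70 with CFZ and between 0.516 and 0.723 with CFZ-DOX, while Col6a1 to Col6a2 overlaps across treatments.

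Type VIII collagen forms short-chain hexagonal networks. Col8a1 stood at 292, 209.9 and 184 CPM in the vehicle libraries, 178, 142 and 132 under CFZ, 419.6, 230.2 and 178 under DOX and 313, 134 and 85.3 under both drugs. Its CFZ libraries were below all DMSO libraries (−0.60 ± 0.40, adjusted p = 0.296, or 0.0336 with the block). DOX and CFZ-DOX overlapped DMSO, at 0.27 ± 0.40, adjusted p = 0.563 (0.38 with the block) and −0.37 ± 0.40, adjusted p = 0.423. On the ribosomal scale Col8a1 was at −0.70 with CFZ (adjusted p = 0.156) and −0.68 with DOX (adjusted p = 0.0841). With CFZ-DOX it was lower there, at −2.12 (adjusted p = 7.23e-05), against a median of −1.56 for all tested genes. Against DOX, CFZ-DOX gave −0.64 ± 0.40, adjusted p = 0.273, with a blocked adjusted p of 0.0132. On the ribosomal scale that change was −1.44 (adjusted p = 0.00326), against a median of −0.75 for all tested genes. Col8a1 was the 1 collagen gene called lower there. Its partner Col8a2 had 1 count over the DMSO libraries, 3 over CFZ, 104 over DOX and 94 over CFZ-DOX. That is a ratio to DMSO of 111 with DOX (95% exact interval 19.6 to 4440.0) and 132 with CFZ-DOX (23.1 to 5270.0), intervals that cover counting error alone. It was called higher in both (2.95e-05 and 1.22e-05, adjusted p, edgeR), yet its highest library reached 1.63 CPM. Col8a2 was tested only because of its doxorubicin libraries and could only be called higher against DMSO, so nothing is read from these calls. Col10a1, of the growth plate, averaged 1.35 ± 0.124 CPM in the vehicle libraries, 0.993 ± 0.212 under CFZ, 2.76 ± 0.604 under DOX and 3.04 ± 1.01 under both drugs, and rose with DOX and CFZ-DOX on the TMM scale; on the ribosomal scale it was at 0.18 and −0.52.

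Among fibril-associated collagens, Col12a1 stood at 21.4, 17.4 and 20.7 CPM in the vehicle libraries, 20.3, 20.1 and 20.7 under CFZ, 54.9, 41.7 and 27.6 under DOX and 78.7, 65.8 and 44.4 under both drugs. It rose 2.09-fold with DOX (1.06 ± 0.23, adjusted p = 0.00103) and 3.17-fold with CFZ-DOX (1.67 ± 0.24, adjusted p = 1.7e-05), and was at 0.13 and −0.02 on the ribosomal scale. Col16a1 stood at 522, 422 and 391 CPM in the vehicle libraries, 395, 309 and 226 under CFZ, 1039.6, 659 and 509.9 under DOX and 1678, 1002 and 704 under both drugs. It changed by −0.52 ± 0.31, adjusted p = 0.238 with CFZ and 0.73 ± 0.31, adjusted p = 0.0524 with DOX, blocked 0.00888 and 0.00107, and rose with CFZ-DOX (1.34 ± 0.32, adjusted p = 0.00144; ribosomal scale −0.38). Col20a1 averaged 2.59 ± 0.281 CPM in the vehicle libraries, 2.30 ± 0.945 under CFZ, 10.3 ± 0.945 under DOX and 14.5 ± 1.21 under both drugs. It rose 3.98-fold with DOX and 5.61-fold with CFZ-DOX, and stayed higher on the ribosomal scale, at 1.14 and 0.86 log2.

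Type IX collagen has 3 chains that decorate cartilage fibrils. Col9a3 averaged 1.87 ± 0.0523 CPM in the vehicle libraries, 4.15 ± 0.353 under CFZ, 2.02 ± 0.628 under DOX and 2.61 ± 0.129 under both drugs, and was the 1 collagen gene higher with CFZ (1.15 ± 0.22, adjusted p = 0.00157); all CFZ libraries lay above all DMSO libraries. With CFZ-DOX it was lower than with CFZ (−0.67 ± 0.22, adjusted p = 0.0135). Col9a2 had 4 counts over the DMSO libraries, 5 over CFZ, 47 over DOX and 77 over CFZ-DOX, a ratio to DMSO of 12.6 (95% exact interval 4.6 to 48.1) and 27.1 (10.2 to 102.0) in the doxorubicin groups. It was called higher there on both scales. However, Col9a2 was tested only because of its doxorubicin libraries and could only be called higher against DMSO, so nothing is read from these calls. Col9a1 was not tested, with 43 counts over all libraries.

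The 3 genes called lower with CFZ were Col17a1, Col7a1 and Col28a1. Col17a1, a transmembrane collagen of hemidesmosomes, stood at 13.95, 14.5 and 10.2 CPM in the vehicle libraries, 7.68, 8.25 and 6.27 under CFZ, 16.1, 13.3 and 8.30 under DOX and 20.04, 19.3 and 10.3 under both drugs. Its CFZ libraries were below all DMSO libraries (−0.80 ± 0.27, adjusted p = 0.0409), a call lost without DMSO 1, CFZ 1, DMSO 2, CFZ 2, DOX 2 or CFZ 3. Col7a1, of the anchoring fibrils of skin, averaged 2.93 ± 0.421 CPM in the vehicle libraries, 1.56 ± 0.132 under CFZ, 2.26 ± 0.139 under DOX and 3.43 ± 0.557 under both drugs and fell 1.88-fold with CFZ (−0.91 ± 0.21, adjusted p = 0.00487); it is under the 2-fold limit for naming and was chosen after its values were seen. Col28a1 averaged 7.08 ± 2.15 CPM in the vehicle libraries, 2.25 ± 1.07 under CFZ, 6.09 ± 3.32 under DOX and 6.92 ± 5.000 under both drugs and fell 3.14-fold with CFZ (−1.65 ± 0.51, adjusted p = 0.0244), lost without DMSO 1, CFZ 2 or CFZ 3. Col18a1, whose end fragment is endostatin, averaged 3.07 ± 1.05 CPM in the vehicle libraries, 2.35 ± 1.07 under CFZ, 7.29 ± 4.39 under DOX and 10.4 ± 6.22 under both drugs, and rose with DOX (1.25 ± 0.47, adjusted p = 0.03; lost without DOX 1, DMSO 2 or DMSO 3) and CFZ-DOX (1.76 ± 0.48, adjusted p = 0.00386), at 0.28 and 0.02 on the ribosomal scale. The last tested gene, Col14a1, stayed under 1 CPM and passed no test against DMSO. The 10 untested genes (Col24a1, Col6a6, Col9a1, Col19a1, Col22a1, Col13a1, Col23a1, Col25a1, Col15a1 and Col26a1) had 4 to 49 counts over the 12 libraries. A library with 0 counts allows up to 0.0714 to 0.106 CPM, from 3 counts, depending on its depth.

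Adding DOX to CFZ was compared next. CFZ-DOX against CFZ had 28 of 34 genes higher and 1 lower on the TMM scale (40.4% and 36.9% of all tested genes), and 4 higher and 3 lower on the ribosomal scale (13.3% and 65.3%). All 10 tested fibrillar genes and all 6 type IV genes were among the 28. On the ribosomal scale 1 of these fibrillar genes and 0 of the type IV genes were higher, and 0 were lower in either class. The Col4a4 libraries of the 2 groups overlapped, and its call (adjusted p = 0.0407) was lost when any 1 of 6 libraries was left out. However, 3 of the 28 (Col4a3, Col8a2 and Col9a2) passed the filter only through doxorubicin libraries. Against CFZ these could only be called higher, and Col8a2 and Col9a2 were also among the 4 on the ribosomal scale. Nothing is therefore read from these counts against the shares of all genes. Col3a1 passed on the TMM scale (2.77 ± 0.81, adjusted p = 0.00942), without overlap between groups, and not on the ribosomal scale (1.05, adjusted p = 0.179). Adding CFZ to DOX gave 3 higher and 0 lower (10.3% and 12% of all genes): Col2a1 (0.92 ± 0.24, adjusted p = 0.0142; lost without DOX 3), Col7a1 (0.60 ± 0.21, adjusted p = 0.0493; lost when any 1 library was left out) and Col9a2 (1.12 ± 0.39, adjusted p = 0.0496; lost when any 1 of 10 was left out). With ribosomal scaling 0 were higher and 1 lower (0.757% and 52.9%), and with the replicate block on the TMM scale 12 were higher and 1, Col8a1, lower (16.1% and 17.1% of all genes).

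The interaction asks whether the CFZ effect differs with and without DOX. It was positive for 3 genes and negative for 0 (8.46% and 11.2% of all genes): Col1a1 (1.24 ± 0.41, adjusted p = 0.0466), Col7a1 (1.51 ± 0.29, adjusted p = 0.00318) and Col17a1 (1.19 ± 0.38, adjusted p = 0.0422). For Col1a1 the CFZ effect was −0.68 without DOX and 0.56 with it on the TMM scale, and −0.77 and −0.21, both negative, on the ribosomal scale. The Col1a1 call was lost when any 1 of 10 libraries was left out, and the Col17a1 call when any 1 of 9 was. With ribosomal scaling the interaction was 0.56, 0.81 and 0.53 (adjusted p = 0.12, 0.0708 and 0.242, edgeR), so none of the 3 passed, and of all collagen genes 0 were positive and 1 negative (1.48% and 31.3% of all genes).

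**Figure D5:**
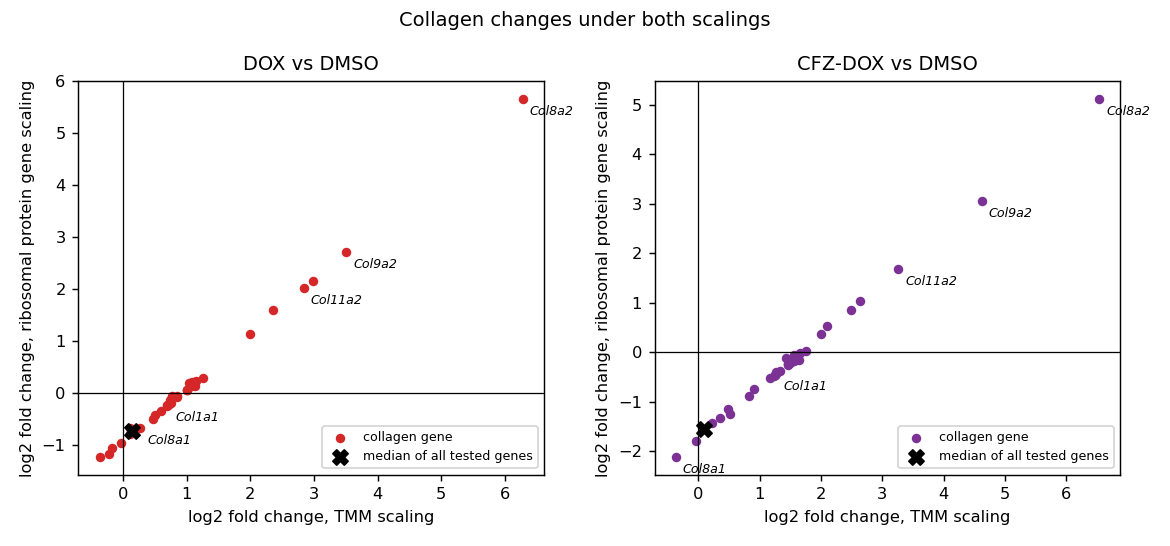
log2 fold change of each tested collagen gene on the TMM scale (x axis) and on the ribosomal protein gene scale (y axis), for DOX and CFZ-DOX against DMSO; the cross is the median of all tested genes. Col8a2, Col9a2 and Col11a2 are above 0 on both axes, whereas Col1a1 is above 0 on the x axis and below on the y axis. Col8a2 and Col9a2 were tested only because of their doxorubicin libraries, so against DMSO they could only be called higher. The cross lies at 0.14 and −0.73 with DOX and at 0.09 and −1.56 with CFZ-DOX.

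Collagen-modifying enzymes and chaperones were read from a list of 20 genes, 18 of them tested. With CFZ 5 were higher and 2 lower, with DOX 17 and 0, and with CFZ-DOX 16 and 0 on the TMM scale, where of all tested genes 14.4% and 14.4%, 36.1% and 31.3%, and 39.3% and 35.7% were called. The medians were −0.07, 0.84 and 1.39. Ribosomal scaling gave 5 higher and 4 lower with CFZ, 0 and 3 with DOX, and 0 and 8 with CFZ-DOX, and the medians were −0.17, −0.07 and −0.30. There 8.28% and 14.2% of all tested genes were called with CFZ, 13.4% and 54.5% with DOX, and 11.1% and 68.6% with CFZ-DOX. With CFZ, P4ha2, a prolyl 4-hydroxylase subunit (1.25 ± 0.14, adjusted p = 2.43e-05), Serpinh1, which codes for HSP47 (1.22 ± 0.22, adjusted p = 0.000991), and Plod2, a lysyl hydroxylase (1.18 ± 0.13, adjusted p = 2.18e-05), rose, while P3h4 (−0.90 ± 0.23, adjusted p = 0.01; lost without CFZ 3) and P4ha3 (−0.68 ± 0.21, adjusted p = 0.0228; lost without DMSO 1, CFZ 2, DMSO 3 or CFZ 3) fell. P3h1, a prolyl 3-hydroxylase, rose with CFZ (1.05 ± 0.16, adjusted p = 0.000282; ribosomal scale 0.96), with DOX (1.19 ± 0.16, adjusted p = 2.1e-05; ribosomal scale 0.30) and with CFZ-DOX (1.81 ± 0.17, adjusted p = 3e-07; 0.13).

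Of 9 genes for secretion and mRNA control, 3 were higher and 1 lower with CFZ, 3 and 3 with DOX, which is near the share of all genes, and 1 and 5 with CFZ-DOX. With ribosomal scaling these counts were 2 and 1, 0 and 5, and 0 and 9. For this list and those below, shares of all tested genes called higher and lower are given for both scales. On the TMM scale they were 14.4% and 14.4% with CFZ, 36.1% and 31.3% with DOX, and 39.3% and 35.7% with CFZ-DOX. On the ribosomal scale they were 8.28% and 14.2%, 13.4% and 54.5%, and 11.1% and 68.6%. Sec24d, a coat protein for procollagen export, was higher with CFZ (0.66 ± 0.23, adjusted p = 0.04; lost when any 1 DMSO or CFZ library was left out) and lower with CFZ-DOX (−2.10 ± 0.24, adjusted p = 1.9e-06; ribosomal scale −3.79). Creb3l2, a transcription factor for secretory genes, was lower with CFZ (−1.39 ± 0.16, adjusted p = 2.75e-05; ribosomal scale −1.48). Larp6, which binds collagen mRNA, was lower with CFZ-DOX (−2.78 ± 0.77, adjusted p = 0.00425; ribosomal scale −4.34). Of 8 tested extracellular processing genes (13 listed), 2 were lower with CFZ, Adamts14 (−2.11 ± 0.33, adjusted p = 0.000283) and Loxl3 (−1.10 ± 0.25, adjusted p = 0.00453), 5 were higher with DOX and 7 with CFZ-DOX, with Bmp1, the procollagen C-proteinase, at 1.11 ± 0.21 and 1.86 ± 0.21 (ribosomal scale 0.21 and 0.17). With ribosomal scaling 0 were higher in any of these, and 4, 2 and 4 were lower with CFZ, DOX and CFZ-DOX. Of 15 tested receptors and fibril partners (16 listed), 1 was higher and 2 lower with CFZ, 6 and 0 with DOX, and 8 and 2 with CFZ-DOX. The largest rises among the 8 were those of Itga10, Itga11 and Fn1, on the TMM scale. Ddr1, a collagen receptor kinase, was 1 of the 2 lower with CFZ-DOX (−0.36 ± 0.11, adjusted p = 0.0112, ribosomal scale −2.01). With ribosomal scaling the counts of this list were 1 and 2, 1 and 4, and 1 and 7.

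Summed levels of some marker lists of other cell types lay outside the DMSO range in treated groups. All sums here are CPM on the library total, without TMM, while means and fold changes of single genes use TMM. Leukocyte markers (3 of 7 tested) summed to 1.38 to 1.68 CPM with DMSO and 12.03 to 27.2 CPM with CFZ-DOX, against 1.59 to 1.94 CPM with CFZ and 5.35 to 11.1 CPM with DOX. Cartilage and bone markers (3 of 9 tested) summed to 191 to 265 CPM with DMSO, 156 to 226 with CFZ, 34.4 to 75.0 with DOX and 25.3 to 66.6 with CFZ-DOX. Nearly all of that sum is Sox9, which fell with CFZ-DOX (−2.33 ± 0.30, adjusted p = 7.04e-06), while the scarce Comp and Sp7 rose, Comp from a mean of 0.868 to 3.26 CPM (1.91 ± 0.27, adjusted p = 1.72e-05, ribosomal scale 0.24) and Sp7 to 0.939 CPM. With DOX alone the 3 were called too, 2 higher and 1 lower (36.1% and 31.3% of all tested genes). On the ribosomal scale 1 was higher and 1 lower with DOX (13.4% and 54.5%). Fibroblast markers (8 of 9 tested) summed to 6055 to 6895 CPM with DMSO, 3293 to 4205 with CFZ, 5978 to 7576 with DOX and 5660 to 8169 with CFZ-DOX. Of the 8, 0 were called higher and 4 lower with CFZ (14.4% and 14.4% of all tested genes). With DOX they were 2 and 4 (36.1% and 31.3%), and with CFZ-DOX 3 and 4 (39.3% and 35.7%). On the ribosomal scale 0 were higher, and 5, 6 and 6 were lower (14.2%, 54.5% and 68.6% of all genes). Epithelial markers (2 of 8 tested) summed to 67.6 to 103 CPM with DMSO, 117 to 198 with CFZ, 77.7 to 93.3 with DOX and 97.1 to 136 with CFZ-DOX. The 2 tested went opposite ways, as Krt14 was called higher and Cdh1 lower with CFZ and with CFZ-DOX. With DOX only Cdh1 was called, lower, all on the TMM scale. On the ribosomal scale both were lower with DOX and with CFZ-DOX. Endothelial markers (4 of 6 tested) summed to 1.67 to 2.61 CPM with DMSO, 2.699 to 3.35 with CFZ, 3.40 to 5.16 with DOX and 3.03 to 4.56 with CFZ-DOX, above DMSO in every treated library. No list had a member at 0 in all libraries, and the part of these markers in the collagen values was not tested.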

How the data were processed

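Polyadenylated RNA of 12 NIH/3T3 libraries was analysed. The deposited values are read counts per gene. The authors trimmed, aligned and counted reads with tools that include Trimmomatic 0.39, STAR 2.7.9a and, for GRCm39, Subread 2.0.2 with featureCounts, per the submitters' processing notes. The annotation release and strand setting are not given in the sources used here. Reads in exon bases that 2 genes share therefore cannot be assigned to 1 of them. Col4a1 and Col4a2 share 22 such bases (0.295% and 0.332% of their exon length), and the largest share with any 1 gene is 6.07%, of Col9a3. Col4a3, with 86 counts over the 12 libraries, shares 563 bases with C430014B12Rik (287 counts) on the other strand. Col20a1 (2843 counts) shares 79 bases with BX649560.1 (1888 counts) on the same strand. The part of such reads in these counts was not tested. Symbols came from a name table that matched 91.4% of gene IDs. Counts were fitted with edgeR 4.0.16 in R 4.3.3 (TMM, filterByExpr with a minimum count of 10 and total of 15, robust quasi-likelihood test, all 4 groups in 1 fit), with Benjamini-Hochberg adjustment over 16648 genes and a threshold of 0.05. The script was tested on simulated data. CPM are TMM-normalised, except in the marker sums and the floors for 0 counts, which use the library total. TPM use exon lengths in the files. Intervals and floors cover counting error only. The members and lists were chosen with earlier results of these data known. Collagen genes averaging 10 CPM or more are given in every library, others where called with at least a 2-fold change against DMSO, and list genes from the largest changes per list. Alternatives were other scalings, filters, DESeq2 1.42.0, limma-voom (limma 3.58.1), a replicate block and leaving out libraries. Same-numbered libraries deviated together across genes in CFZ with DMSO (r = 0.38, 0.30, 0.42), in DOX with DMSO (r = 0.25, 0.26, 0.21) and in CFZ-DOX with DOX (r = 0.58, 0.35, 0.65), less so in CFZ-DOX with DMSO (r = 0.29, 0.06, 0.08) or with CFZ (r = 0.26, 0.02, 0.10). The pairing comes from these values, not from the labels, and blocked values are therefore printed beside results for the first 3 comparisons only. For single genes they are printed mostly where they were under 0.05. Blocked adjusted p-values (edgeR) above it include 0.0986 for Col5a1 and 0.176 for Col5a2 with CFZ, and 0.119 for Col11a1 with DOX. Blocked counts of CFZ-DOX against DMSO and of the interaction appear only among the alternatives at the end.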

Additional observations from a re-analysis of the deposited data

Results flagged for a closer look

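The effect of CFZ with DOX minus its effect without DOX differed from 0 (edgeR interaction test) for Col1a1, at 1.24 log2, for Col7a1, at 1.51, and for Col17a1, at 1.19. Without DOX, all 3 CFZ libraries lay below the DMSO libraries in each of these genes, and with DOX the fitted CFZ effect was positive on the TMM scale. On the ribosomal scale it was negative, at −0.21, −0.19 and −0.37, and the interaction did not pass (adjusted p = 0.12, 0.0708 and 0.242).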

How the results depend on the processing

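All counts below are of collagen genes called, higher then lower where both moved. They show how the calls move with the processing. The Results give shares of all genes for TMM, the ribosomal scale, some blocked comparisons and some calls in all 5 scalings. For the other settings no such share is given, so nothing is read from those counts about the collagen genes. On the ribosomal scale the counts were 5 lower for CFZ against DMSO, 6 higher and 4 lower for DOX, 4 and 9 for CFZ-DOX, 4 and 3 for CFZ-DOX against CFZ, 0 and 1 for CFZ-DOX against DOX, and 0 and 1 for the interaction. By library size only they were 5 lower for CFZ, 1 lower for CFZ-DOX and 0 higher for CFZ-DOX against DOX. With upper quartile scaling CFZ-DOX against CFZ had 0 lower and the interaction 5 higher. With no filter CFZ had 5 lower, CFZ-DOX against DOX 7 higher and the interaction 11 higher; with DESeq2 the last 2 were 5 and 6. With the replicate block CFZ had 11 lower, CFZ-DOX 1 lower, CFZ-DOX against DOX 12 higher and 1 lower, and the interaction 18 higher. Same-numbered libraries deviated together less in CFZ-DOX with DMSO or with CFZ. The blocked counts of CFZ-DOX and of the interaction rest on that weaker pairing, and nothing is read from them. With only the 6 libraries compared, CFZ had 2 higher and 9 lower, CFZ-DOX against CFZ 0 lower and CFZ-DOX against DOX 1 higher. At an adjusted p under 0.01, CFZ had 1 lower, DOX 10 higher, CFZ-DOX against CFZ 0 lower, CFZ-DOX against DOX 0 higher and the interaction 1 higher. Of alternatives chosen after seeing the data, the libraries numbered 2 and 3 alone gave 17 higher for DOX and 24 for CFZ-DOX, 1 lower for CFZ-DOX, 0 higher and 1 lower for CFZ-DOX against DOX, and 1 higher for the interaction. No DOX 3 or CFZ-DOX 3 gave 5 lower for CFZ, and 5 higher and 1 lower for the interaction. Calls in all 5 scalings numbered 6 higher for DOX, 4 for CFZ-DOX, 4 higher and 0 lower for CFZ-DOX against CFZ, 0 higher for CFZ-DOX against DOX and 0 higher for the interaction. Leaving out each library in turn, lower calls with CFZ ran from 1 to 4, higher calls from 10 to 23 with DOX, 22 to 27 with CFZ-DOX, 27 to 29 for CFZ-DOX against CFZ, 1 to 7 for CFZ-DOX against DOX and 1 to 10 for the interaction; lower calls in CFZ-DOX against DMSO, against DOX and the interaction ran from 0 to 1.

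From TMM to the ribosomal scale the log2 fold change changed sign in 1 of the 34 tested genes with CFZ, 15 with DOX, 24 with CFZ-DOX, 13 for CFZ-DOX against CFZ, 25 for CFZ-DOX against DOX and 8 for the interaction. In 5, 20, 10 and 1 of these, for DOX, CFZ-DOX, CFZ-DOX against CFZ and CFZ-DOX against DOX, the change passed the test on at least 1 of the scales. On the ribosomal scale these were, with DOX, Col1a1 −0.23, Col5a2 −0.076, Col4a1 −0.19, Col4a6 −0.0677, Col9a3 −0.80; with CFZ-DOX, Col1a1 −0.44, Col1a2 −0.49, Col5a1 −0.46, Col5a2 −0.46, Col5a3 −0.14, Col11a1 −1.25, Col4a1 −0.25, Col4a2 −0.26, Col4a4 −0.0496, Col4a5 −0.23, Col4a6 −0.25, Col6a1 −0.17, Col6a2 −0.19, Col6a3 −0.88, Col7a1 −1.43, Col10a1 −0.52, Col9a3 −1.16, Col12a1 −0.0232, Col16a1 −0.38, Col17a1 −1.33; for CFZ-DOX against CFZ, Col5a1 −0.0234, Col5a2 −0.0576, Col4a2 −0.14, Col4a4 −0.39, Col4a5 −0.095, Col6a3 −1.08, Col7a1 −0.42, Col8a1 −1.42, Col17a1 −0.44, Col28a1 −0.0486; and for CFZ-DOX against DOX, Col7a1 −0.19. The cause was not tested.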
